A study of Macaca mulatta with 252 samples.

Results

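Axon guidance ligands and receptors were followed over the brain of the rhesus macaque as 62 genes, out of 14133 genes that had a probe set with a single symbol. Members were taken by a name rule, which was set with earlier results of these data known. It took ephrin, Eph receptor, semaphorin, plexin, neuropilin, Slit, Robo, netrin and UNC5 symbols in the array's annotation, but no netrin-G symbols. For each gene the probe set of highest mean was used. The members comprised 8 ephrins, 11 Eph receptors, 16 semaphorins, 9 plexins, 2 neuropilins, 3 Slits, 4 Robos, 4 netrins and 5 UNC5 symbols. UNC50 matches the name pattern without being a netrin receptor, and it was kept because the rule takes it. The study measured RNA on 225 arrays from 57 region groups, collected by laser microdissection from 6 adult animals, 3 male and 3 female, called A to F here. The labels name no treatment or genetic change for any group. The groups were the layers of 10 neocortical areas, the hippocampal fields CA1, CA2, CA3 and dentate gyrus (DG), and the magnocellular, parvocellular and koniocellular divisions of the dorsal lateral geniculate nucleus (LGN), the thalamic relay to visual cortex. The areas were the anterior cingulate gyrus (ACG), the orbitofrontal (OFC) and dorsolateral prefrontal (DLPFC) cortex, the primary motor (M1), somatosensory (S1), auditory (A1) and visual (V1) cortex, the secondary visual cortex (V2), the middle temporal area (MT) and the temporal area TE. Of the groups, 54 held 4 arrays and 3 held 3.

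Guidance molecules steer growing axons by attraction or repulsion. Ephrins are tethered to the membrane and are read by Eph receptors, A-class ephrins mostly by EphA and B-class ephrins mostly by EphB receptors. Semaphorins signal through plexins, most of the secreted class with neuropilins as co-receptors. Slits repel through Robo receptors, and netrins attract through DCC and repel through UNC5 receptors. Many of these genes stay on in the adult brain, where they are known for roles in synapses and dendritic spines.

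All values are log2 levels of the submitters' normalised intensities, so a difference of 1 is a 2-fold change. Levels of different genes are not set against each other, because probe sets differ in brightness. A gene was called in a comparison when its Benjamini-Hochberg adjusted p over all genes tested was under 0.05 (limma, animal as a block) and its change was at least 2-fold. Of the members, 48 had a mean above the median of all probe sets (4.76) and 14 did not, and the number tested varied because that limit was applied to the arrays of each comparison. Defining markers followed the labels: PROX1 of dentate granule cells was higher in DG by 3.64, TCF7L2 of the thalamus was higher in the LGN than in neocortex by 2.71, and RORB was higher in layer 4 by 1.60. The labels state 3 amplification batches without assigning samples to them. The hybridisation controls were spread widely over the arrays of V2, OFC, MT, DLPFC, LGN and hippocampus and narrowly over those of the remaining areas, and these 2 control sets served as a stand-in for batch. Captured samples are mixtures, in which fewer cells of a type and less RNA per cell cannot be told apart.

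Across the 57 groups, the 48 brighter members had a median range between highest and lowest group mean of 1.76, against 1.25 for the 10300 genes above the same limit. EPHA3, a receptor for A-class ephrins, ranged from 5.05 ± 0.20 (SD, n = 4) in DG to 10.25 ± 0.31 (SD, n = 4) in layer 4 of MT. NTN4, a secreted netrin, ranged from 2.81 ± 0.19 (SD, n = 4) in parvocellular LGN to 8.54 ± 0.27 (SD, n = 4) in layer 5 of ACG. ROBO1, a Slit receptor, ranged from 5.68 ± 0.76 (SD, n = 4) in layer 6 of V1 to 10.49 ± 0.45 (SD, n = 4) in CA2. These extremes were further apart than the spread within either group. By contrast, the group means of SEMA4B, a transmembrane semaphorin, moved only between 6.02 in DG and 6.53 in layer 6 of S1. Those of EFNA1, an A-class ephrin, lay between 10.57 in layer 4 of V2 and 11.46 in DG.

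**Figure D1:**
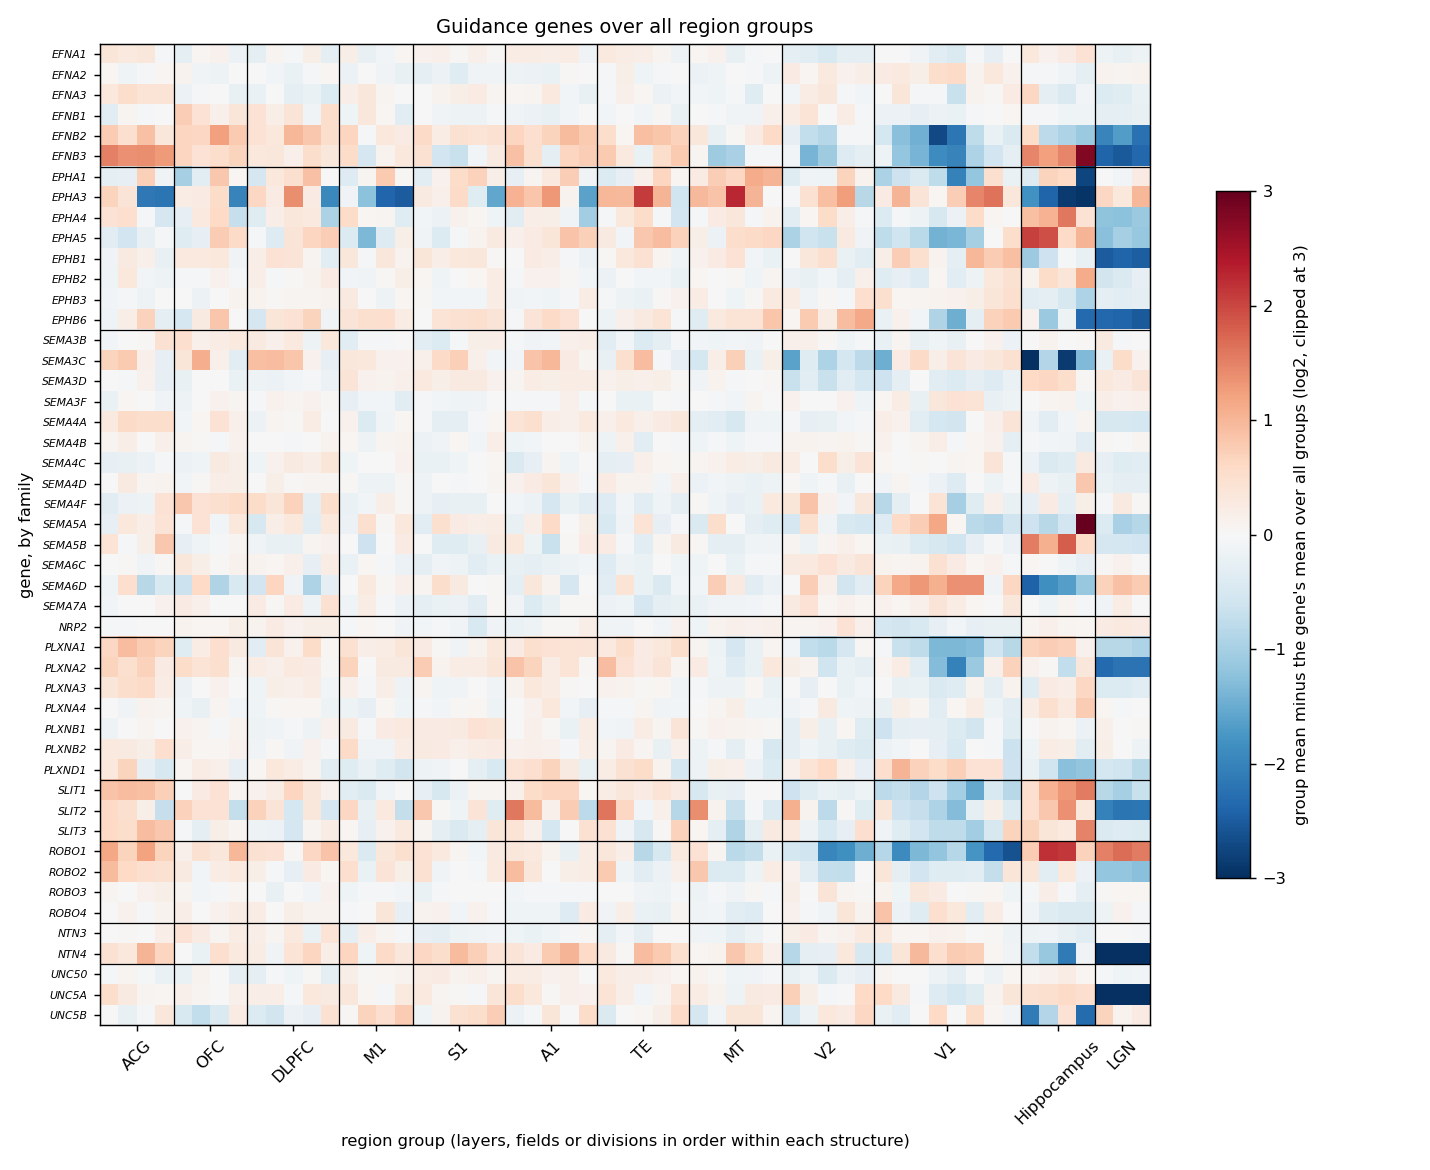
Level of the 48 brighter members (rows, by family) in the 57 region groups (columns, in order of layer, field or division within each structure), shown as the group mean minus the gene's own mean over all groups on the log2 scale, with the colour scale limited to 3. NTN4, UNC5A, EPHB1, EPHB6 and PLXNA2 are low in the LGN, ROBO1 is low in V1, and EPHA3 is low in the hippocampus.

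In layers 2, 3, 5 and 6 of the 10 areas (158 arrays), area accounted for a median of 21.6% of the variation of the members and layer for 4.01%, against 18.5% and 6.16% over all genes. The area share was 63.7% for ROBO1, 59.0% for EFNB2, 58.6% for EFNB3, 51.5% for PLXNA1 and 48.6% for SLIT1. Layer took the larger share for SLIT2 (58.4%), SEMA6D (47.8%) and PLXND1 (42.0%). EPHA3 was split between them, with 31.4% for area and 30.6% for layer. Area also holds any difference between batches.

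The first comparison set neocortex, hippocampus and LGN against each other in the 4 animals A, C, D and E. Among these structures 20 of 48 members were called, against 18% of the 10307 genes tested. Relative to neocortex, 12 members were called in the LGN (10.7% of all genes), of which 11 were lower (6.86% of all genes) and 1 was higher (3.88%). Against hippocampus, 19 members were called in the LGN (14.1% of all genes), 15 lower (7.91%) and 4 higher (6.24%). Between hippocampus and neocortex 12 members were called (5.83% of all genes), 6 higher in hippocampus (2.15%) and 6 lower (3.68%). The median change of the members in the LGN was -0.28 from neocortex and -0.19 from hippocampus, where all genes tested had medians of -0.0023 and -0.0096.

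NTN4 showed the widest gap between LGN and neocortex. It was at 2.94, 3.20, 3.30 and 2.85 in the LGN of animals A, C, D and E, at 6.83, 6.92, 6.06 and 6.14 in their hippocampus and at 7.83, 7.66, 7.79 and 7.81 in their neocortex. The structures did not overlap, and the LGN level was lower than in neocortex by 4.70 ± 0.17 (SE, n = 4 animals), a 26.0-fold difference (limma, adjusted p = 5.5e-10). The LGN values of NTN4 lay below the median of all probe sets (4.76), so the size of that fold rests on a level near background. UNC5A, a netrin receptor, was at 5.12, 4.76, 4.87 and 4.91 in the LGN, at 8.68, 8.65, 8.76 and 8.86 in hippocampus and at 8.47, 8.60, 8.35 and 8.47 in neocortex. All LGN values lay below all others, and the LGN was 11.8-fold below neocortex (-3.56 ± 0.084). These LGN values of UNC5A were close to the same median. Hippocampus minus neocortex stood at 0.26 ± 0.084 for UNC5A. UNC5B, another netrin receptor, stood at 0.31 ± 0.11 in LGN minus neocortex, and NTN3, another netrin, at -0.028 ± 0.061. UNC5B was higher in LGN than in hippocampus by 1.55 ± 0.11 and lower in hippocampus than in neocortex by 1.23 ± 0.11. By field its mean was 4.45 in CA1, 5.66 in CA2, 6.99 in CA3 and 4.23 in DG, against 6.57 in neocortex. CA3 thus did not share the lower level.

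EFNB3, EFNB2, EPHB6 and EPHB1 were also called lower in the LGN than in neocortex. EFNB3, a transmembrane ephrin, was at 5.96, 6.18, 6.10 and 5.98 in the LGN, at 8.57, 8.86, 8.34 and 8.88 in neocortex and at 10.03, 10.27, 10.24 and 10.33 in hippocampus. Each animal had the same order, and EFNB3 was 17.9-fold lower in LGN than in hippocampus (-4.16 ± 0.095). A second EFNB3 probe set of lower brightness did not follow the first (r = -0.17 over 225 arrays) and gave 0.084 for that comparison, so all EFNB3 values rest on 1 probe set. EFNB2, another transmembrane ephrin, was lower in LGN than in neocortex by 2.25 ± 0.095, and its second probe set gave -1.75. EPHB6, an Eph receptor that lacks kinase activity, was at 6.03, 5.71, 5.91 and 6.08 in the LGN and at 8.72, 8.33, 8.76 and 8.76 in neocortex. These did not overlap, and the LGN was lower by 2.71 ± 0.064, a 6.54-fold difference. EPHB1, a receptor of B-class ephrins, was lower there by 2.62 ± 0.11, and its second probe set gave -0.82. Its relatives EPHB2 (-0.42 ± 0.077) and EPHB3 (-0.36 ± 0.068) and the ligand EFNB1 (-0.30 ± 0.058) were not called.

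In the LGN ROBO1 parted from SLIT2 and ROBO2. SLIT2, a secreted repellent, was at 5.73, 5.61, 5.35 and 5.41 in the LGN, at 8.23, 8.19, 8.67 and 8.47 in hippocampus and at 7.81, 7.86, 7.67 and 8.05 in neocortex. The LGN did not overlap either and was lower than neocortex by 2.32 ± 0.13. ROBO1 was at 9.86, 9.83, 9.80 and 10.06 in the LGN against 7.90, 8.14, 8.31 and 8.30 in neocortex. Of the 48 members tested it was the only one called higher in the LGN than in neocortex (1.73 ± 0.095, 3.31-fold), and in hippocampus it was higher than in neocortex by 1.58 ± 0.095. ROBO2, another Slit receptor, went the other way in the LGN (-1.34 ± 0.073) and stood at -0.10 ± 0.073 in hippocampus minus neocortex. SLIT1 was higher in hippocampus than in neocortex by 1.13 ± 0.074 and lower in LGN than in hippocampus by 1.93 ± 0.074.

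Members that were low in the hippocampus included an Eph receptor and 2 semaphorins. EPHA3 was at 5.42, 5.79, 5.16 and 5.60 in hippocampus, at 8.20, 7.80, 8.07 and 7.89 in neocortex and at 8.67, 8.41, 8.50 and 8.97 in the LGN. No pair of structures overlapped, and EPHA3 was 8.86-fold higher in LGN than in hippocampus (3.15 ± 0.14). SEMA6D, a transmembrane semaphorin that acts through class A plexins, was at 7.63, 7.50, 7.47 and 7.78 in hippocampus and at 10.30, 10.03, 10.19 and 10.04 in the LGN. The difference of 2.55 ± 0.076 was larger than any spread between animals, and other probe sets gave 2.22 and 1.004. SEMA3C, a secreted semaphorin, was lower in hippocampus than in neocortex by 2.12 ± 0.23, against -0.69 in its second probe set. EPHA5 ran opposite to EPHA3: it was higher in hippocampus than in neocortex by 1.38 ± 0.088 and lower in LGN than in hippocampus by 2.52 ± 0.088, where its second probe set gave 1.71 and -2.90. PLXNA2, a semaphorin receptor, was lower in LGN than in neocortex by 2.53 ± 0.085, and other probe sets gave -2.13 and -0.79. SEMA5B was higher in hippocampus than in neocortex by 1.26 ± 0.074.

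The hippocampus and the LGN lay in the same control set as 4 of the cortical areas. With the cortical mean taken over those 4 areas alone, the calls of members were made again in all 3 contrasts: 12 of 12 in hippocampus against neocortex, 12 of 12 in LGN against neocortex and 19 of 19 in LGN against hippocampus. NTN4 then stood at -4.46 in LGN minus neocortex, UNC5A at -3.55 and EFNB3 at -2.32.

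Cell type markers moved with these contrasts, and their part in them was not tested. The 2 excitatory neuron markers on the array, of 5 listed, were NEUROD6 and SLC17A7. Their level is that of these 2 genes and is no measure of excitatory neurons of every kind. Their mean was 4.29 to 4.48 in the LGN, 7.60 to 7.80 in neocortex and 8.85 to 9.09 in hippocampus. The 3 oligodendrocyte markers of 7 listed had 11.6 to 11.8, 10.5 to 10.9 and 9.80 to 10.1. Among 36 other guidance genes 28 were tested. Of these, 12 were called in the LGN against neocortex (10.7% of all genes), 2 higher (3.88%) and 10 lower (6.86%). NTNG1, a membrane-bound netrin-G, was higher by 4.62 ± 0.08, and NGEF, an exchange factor that acts downstream of EphA receptors, was lower by 4.09 ± 0.068.

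**Figure D2:**
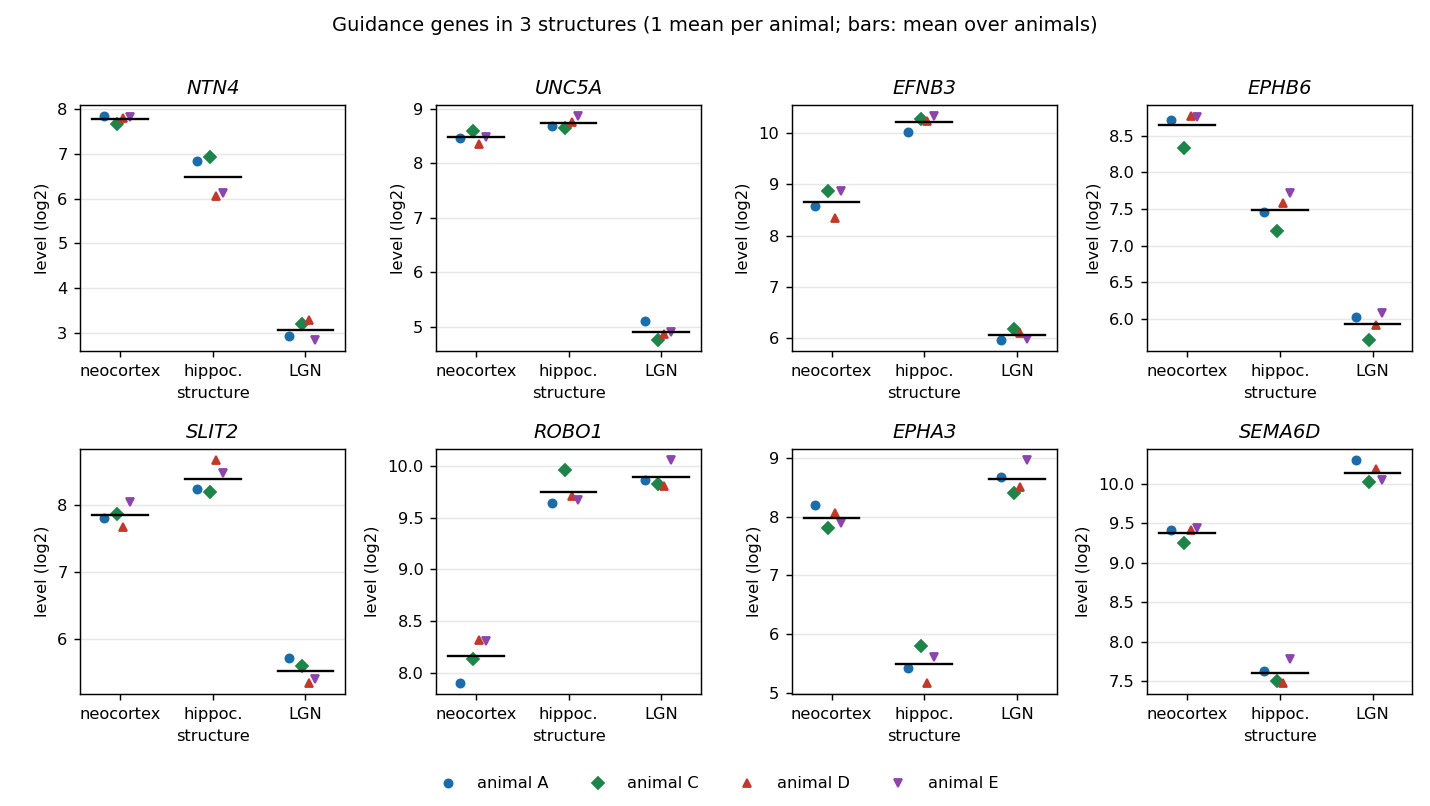
Level (log2) of 8 members in neocortex, hippocampus and LGN, with 1 point per animal (A, C, D and E) and bars at the mean over animals, each panel with its own axis. NTN4, UNC5A, EFNB3, EPHB6 and SLIT2 have their lowest points in the LGN, ROBO1 in neocortex, and EPHA3 and SEMA6D in hippocampus.

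The comparison among the 10 neocortical areas used 1 mean of layers 2, 3, 5 and 6 per animal and area. Here 7 of 48 members were called (9.19% of 10310 genes): ROBO1, EPHA3, EFNB3, SLIT1, EFNB2, PLXNA1 and SEMA3C. For ROBO1, EFNB3, SLIT1 and PLXNA1 the highest area was ACG and the lowest V1. With areas compared only within each control set, these 7 were called again, against 7.17% of all genes.

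ROBO1 carried the widest area difference, 2.83 between the highest and lowest area. It was at 5.73, 6.21, 6.92 and 6.63 in V1 of animals A, C, D and E, at 7.05, 7.05, 7.33 and 7.35 in V2 and at 7.79 to 9.34 in the other areas. V1 and V2 overlapped neither each other nor another area. Against the mean of the other areas, V1 was lower by 2.08 ± 0.11, V2 was lower by 1.16 ± 0.11, and ACG was higher by 1.06 ± 0.12. The ACG difference came to 0.98 without animal A.

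Of the Slit ligands, SLIT1 varied over the areas. SLIT1 was at 5.90, 6.33, 5.55 and 5.95 in ACG of animals A, B, D and E, and at 4.37, 4.78, 4.15 and 4.24 in V1 of animals A, C, D and E. These areas did not overlap, and the range of fitted means over areas was 1.52 (limma F test, adjusted p = 3.8e-08). In the contrast of V1 and V2 with the frontal areas ACG, OFC and DLPFC, SLIT1 stood at -0.89 ± 0.097, SLIT2 at -0.084 ± 0.082 and SLIT3 at -0.27 ± 0.069, none of them called. ROBO1 was lower by 2.13 ± 0.11 in that contrast, and ROBO2 stood at -0.44 ± 0.073.

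The contrast of visual with frontal areas called 3 of 48 members (1.47% of all genes), and the 3 were lower in visual areas (1.27% of all genes). Besides ROBO1 these were EFNB3 and EFNB2, both transmembrane ephrins. EFNB3 was at 9.89, 9.93, 9.64 and 10.06 in ACG of animals A, B, D and E and at 7.86, 8.37, 7.28 and 8.26 in V1 of animals A, C, D and E. These areas did not overlap, and visual areas were lower than frontal areas by 1.33 ± 0.092, where the second probe set gave 0.19. EFNB2 was at 8.36, 8.60, 8.38 and 8.43 in V1, at 8.87, 8.77, 8.64 and 8.82 in V2 and at 9.84, 9.94, 9.86 and 9.82 in OFC of animals B, C, D and E. Neither visual area overlapped OFC, and EFNB2 was lower in visual areas by 1.12 ± 0.069, with -0.74 in its second probe set. EphB receptors were not called in this contrast: EPHB1 stood at 0.16 ± 0.06, EPHB2 at -0.18 ± 0.091, EPHB3 at 0.26 ± 0.052 and EPHB6 at 0.44 ± 0.082. Without animal D the contrast called 5 members, these 3 with EPHA3 and PLXNA1.

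EPHA3 had an area pattern of its own. It was at 7.47, 6.65 and 5.93 in M1 of animals A, C and D and at 9.30, 8.57, 8.40 and 8.59 in MT of animals A, C, E and F. These areas did not overlap, and M1 was lower than the other areas by 1.48 ± 0.27 (adjusted p = 3.4e-04), which became -0.95 without animal D. ACG was lower by 1.01 ± 0.24, and this call was lost without animal A (-0.85), without animal E (-0.98) and within control sets (-0.95). In visual minus frontal areas EPHA3 stood at 0.997 ± 0.21, EFNA1 at -0.18 ± 0.079, EFNA2 at 0.19 ± 0.05 and EFNA3 at 0.029 ± 0.081. The last 3 are A-class ephrins, the ligand class of EPHA3.

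Single areas called few members. ACG had 3 of 48 (1.18% of all genes), M1 had 1 (0.252%), V1 had 2 (1.19%) and V2 had 2 (0.495%). The calls of V1 and V2 were all lower ones. In V1 EFNB2 was lower by 1.05 ± 0.075 beside ROBO1, a value of -0.97 without animal A and of -0.58 in its second probe set. In V2 SEMA3C was lower by 1.03 ± 0.11, at 8.33, 8.96, 8.40 and 8.10 in animals A, C, D and E. It came to -0.94 without animal D and -0.98 without animal E, and its second probe set gave 0.0055. No member was called in A1 (0.107% of all genes), DLPFC (0.0485%), MT (0.136%), OFC (0.136%), S1 (0.0388%) or TE (0.0679%), where 5 to 10 members passed the adjusted p without reaching 2-fold.

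Poly-A spike-in controls and marker lists also moved with area, and their part was not tested. The spike-ins averaged a log2 level of 9.99 in V1 and 9.83 in V2, and between 8.47 and 9.33 elsewhere in neocortex. The mean of the 2 excitatory neuron markers was 6.91 to 7.31 in V1, 6.97 to 7.02 in V2 and 8.22 to 8.73 in ACG, and that of the 3 oligodendrocyte markers was 11.1 to 11.7 in M1 and 9.68 to 10.4 in ACG. Within control sets ROBO1 had -2.25 in V1, -1.39 in V2 and 1.14 in ACG, EFNB3 had 1.29 in ACG and EFNB2 had -1.13 in V1. There EPHA3 (1.12) and SLIT1 (-1.002) were called in visual against frontal areas as well, and EPHA3 (1.18) and EFNB3 (-1.11) in V1. Of the other guidance genes 1 of 28 was called among areas (9.19% of all genes), ABLIM3, an actin-binding protein, with a range of 1.09.

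**Figure D3:**
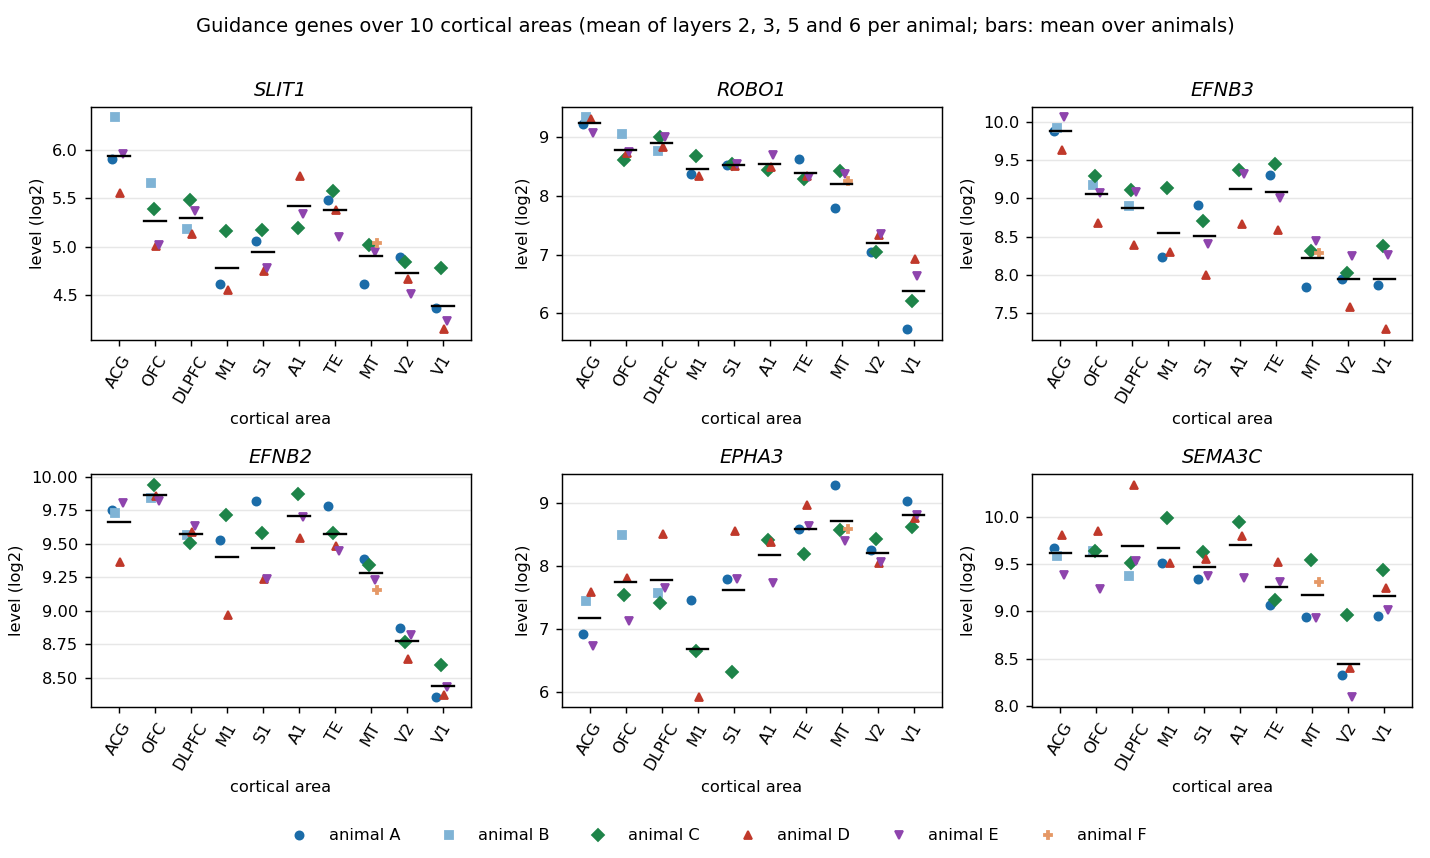
Level (log2) of 6 members in the 10 cortical areas, with 1 point per animal and area (mean of layers 2, 3, 5 and 6) and bars at the mean over animals, each panel with its own axis. ROBO1 and EFNB2 are lowest in V1, SLIT1 and EFNB3 have their highest mean in ACG, EPHA3 is lowest in M1 and SEMA3C in V2.

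Layers were compared in the 6 areas with a layer 4 other than V1 (A1, S1, DLPFC, V2, MT, TE), with 1 value per animal and layer in animals A, C, D and E. Among layers 4 of 47 members were called (6.61% of 10299 genes): EPHA3, SLIT2, SEMA6D and EPHA1.

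EPHA3 was high in layer 4 and low in layer 6. It was at 9.88, 8.89, 9.48 and 9.41 in layer 4 and at 7.42, 6.52, 7.39 and 6.79 in layer 6. Layer 6 did not overlap any other layer, and each animal had its highest value in layer 4. Layer 4 was higher than the other layers by 1.18 ± 0.13 (1 of 47 members called, 0.777% of all genes), and layer 6 was lower by 1.80 ± 0.13 (1 of 47, 1.63%). A-class ephrins in layer 6 stood at -0.17 ± 0.048 (EFNA1), 0.046 ± 0.044 (EFNA2) and -0.11 ± 0.045 (EFNA3). The other EPHA3 probe set was dim, and with both averaged the changes were 0.59 in layer 4 and -0.93 in layer 6.

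SLIT2 was the member of layer 2. It was at 8.60, 8.96, 8.68 and 9.07 in layer 2, at 8.02, 7.96, 7.73 and 8.23 in layer 3 and at 7.20, 6.82, 7.28 and 7.19 in layer 6. Layer 2 did not overlap another layer and was higher by 1.26 ± 0.083 (2.40-fold, adjusted p = 3.8e-10), the only call of 47 members (2.71% of all genes). Its receptors ROBO1 (0.50 ± 0.098) and ROBO2 (0.67 ± 0.062) did not reach 2-fold in layer 2. SLIT3 stood at 0.38 ± 0.061 and SLIT1 at -0.21 ± 0.06 there.

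SEMA6D peaked in layer 3, at 10.05, 9.81, 10.10 and 9.94, and was lowest in layer 5, at 8.98, 8.65, 8.95 and 9.09. These layers did not overlap, and the range of fitted means was 1.05 (adjusted p = 7.2e-09). EPHA1, an Eph receptor, was highest in layer 5, at 8.90, 8.71, 8.23 and 9.19, and lowest in layer 2, at 7.85, 7.46, 7.39 and 8.23, a range of 1.02. Every animal had that order, although these layers overlapped slightly between animals, and EPHA1 was not called without animal C. No member was called in layer 3 (0.651% of all genes) or layer 5 (0.689%).

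Deep layers (5 and 6) were set against upper layers (2 and 3) over the areas in 5 animals. Of 48 members 1 was called, against 2.12% of 10313 genes. EPHA3 was at 7.71, 6.94, 7.27, 7.71 and 7.36 in the deep layers of animals A to E and at 8.69, 8.74, 8.34, 8.42 and 8.42 in the upper layers. The depths did not overlap, and the deep layers were lower by 1.12 ± 0.13, a difference of -0.95 without animal B. Animal B had arrays from ACG, OFC and DLPFC alone and showed the largest difference (-1.79). Its areas and its depth difference cannot be told apart from the animal. Marker lists moved with depth, and their part was not tested. The 3 oligodendrocyte markers had mean levels of 11.1 to 11.4 in the deep and 9.46 to 10.3 in the upper layers, where deep minus upper was 1.83 ± 0.12 for MBP, 2.05 ± 0.13 for UGT8 and -0.051 ± 0.046 for CNP. The 2 excitatory neuron markers had 8.38 to 8.91 and 6.82 to 7.77, with 2.40 ± 0.17 for NEUROD6 and 0.43 ± 0.08 for SLC17A7. The 4 inhibitory neuron markers had 8.05 to 8.48 and 8.46 to 9.03, the 4 astrocyte markers 9.70 to 10.1 and 10.1 to 10.4, and the 5 microglia markers 5.84 to 6.199 and 6.15 to 6.63. Of the other guidance genes 4 of 28 were called among layers (6.61% of all genes). NTNG1 was lower (-1.44 ± 0.068) and its relative NTNG2 higher (1.09 ± 0.06) in deep layers.

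EPHA3 and SEMA3C, an Eph receptor and a secreted semaphorin, were the 2 of 49 members whose deep minus upper difference in V1 was called different from that in the other areas (0.572% of 10317 genes). For EPHA3 that difference was 0.26, 0.16, 0.76 and 0.22 in V1 of animals A, C, D and E and -1.19, -1.22, -0.89 and -1.22 in their other areas. Every animal was positive in V1 and negative elsewhere, and the gap was 1.48 ± 0.11 (adjusted p = 0.0044). For SEMA3C it was 1.91, 0.41, 0.84 and 0.84 in V1 and 0.28, -0.59, -0.23 and -0.69 elsewhere. The V1 value was the higher one in each animal, with a gap of 1.31 ± 0.15 (adjusted p = 0.018) and 0.60 in its second probe set. EPHA3 missed the adjusted p without animal C (0.054), and SEMA3C missed it without A (0.073), C (0.10), D (0.072) or E (0.10).

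By group, EPHA3 showed how the layers differed between areas. In layer 5 its mean was 5.62 in M1, 5.86 in ACG, 8.55 in OFC, 9.25 in V2 and 9.63 in V1. In layer 6 it was 5.51 in M1, 5.81 in ACG, 5.99 in OFC, 7.17 in V2 and 8.34 in V1. In layer 2 of ACG it was 8.67, and in layer 4 it reached 10.25 in MT and 10.09 in TE. The deep layers of M1 and ACG were thus both low, while OFC and V2 were low in layer 6 alone of their deep layers.

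V1 was then taken by itself, with its layers 2, 3, 4A, 4B, 4Ca, 4Cb, 5 and 6 in 4 animals. Among them 19 of 46 members were called (14.7% of 10218 genes). Layer 4Ca, which receives magnocellular input, had 5 calls (2.5% of all genes), all of them lower (1.97%), and layer 6 had 6 (2.9%). There were 2 in layer 2 (3.94%), 2 in layer 4B (1.69%) and 4 in layer 5 (1.49%), and none in layer 3 (1.23%), 4A (0.235%) or 4Cb (1.77%).

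EFNB2 was low in layers 4B and 4Ca of V1. It was at 6.07, 5.99, 7.48 and 5.81 in layer 4B of animals A, C, D and E and at 8.40, 9.18, 8.79 and 9.01 in layer 5. These layers did not overlap, and 4B was lower than the other layers by 1.74 ± 0.20, while its second probe set gave -0.45. EFNB2 was also lower in 4Ca by 1.12 ± 0.20 (-0.93 without animal E) and higher in layer 5 by 1.12 ± 0.20, with -1.46 and 0.45 in the second probe set. EFNB3 was higher in layer 2 by 1.02 ± 0.19 (0.92 without animal D) and lower in 4Ca by 1.10 ± 0.19, while its second probe set gave -0.24 and 0.44.

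Eph receptors and a plexin were low in layer 4Ca too. PLXNA2 was at 6.09, 5.84, 6.43 and 6.11 in layer 4Ca and at 8.72, 8.48, 9.13 and 9.01 in layer 6, with a range of fitted means of 2.72 over layers. These layers did not overlap, and PLXNA2 was lower in 4Ca by 1.81 ± 0.19 and higher in layer 6 by 1.29 ± 0.19. Other PLXNA2 probe sets gave -1.58 and -0.80 in 4Ca and 1.02 and 0.74 in layer 6. EPHB6 was at 7.19, 7.33, 6.38 and 6.70 in 4Ca and at 8.77, 8.83, 9.50 and 9.43 in layer 6. These did not overlap either, and EPHB6 was lower in 4Ca by 1.48 ± 0.18, while its call in layer 6 (1.078 ± 0.18) was lost without animal D (0.97) or animal E (0.96). EPHA1 was at 7.40, 6.31, 5.14 and 5.13 in 4Ca and at 8.42, 8.23, 8.54 and 8.83 in layer 5. The values in 4Ca were spread widely between animals but lay below those of layer 5, and EPHA1 was lower in 4Ca by 1.502 ± 0.27, against -0.31 in its other probe set. Its layer 5 difference (1.37 ± 0.27) had an adjusted p of 0.065 without animal D, and the other probe set gave 0.77.

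Layers 5 and 6 of V1 had several called members. EPHA5, an Eph receptor, was higher in layer 6 by 1.37 ± 0.23, with 1.25 in its second probe set. SLIT3 was higher in layer 6 by 1.26 ± 0.17, and the receptor ROBO1 was lower there by 1.16 ± 0.22. PLXND1, a semaphorin receptor, was lower in layer 6 by 1.24 ± 0.13. In layer 5 EPHA3 was higher by 1.02 ± 0.25, a call that was lost without animals C (0.86), D (0.94) or E (0.98) and without the block by animal (adjusted p = 0.052). SEMA6D was lower in layer 5 by 1.19 ± 0.14, with -1.24 and -0.43 in other probe sets.

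Semaphorins marked other layers of V1. SEMA5A, a transmembrane semaphorin, was at 8.29, 9.01, 8.76 and 9.09 in layer 4B and at 6.30, 6.91, 6.69 and 7.11 in layer 5. These layers did not overlap, and 4B was higher by 1.35 ± 0.20. SEMA3C was at 6.31, 8.76, 7.86 and 8.30 in layer 2 and lower there by 1.81 ± 0.30, with animal A far below the other animals and -0.29 in the second probe set. The excitatory marker pair had mean levels of 5.64 to 6.15 in 4Ca and 8.01 to 8.46 in layer 6, and its part in these values was not tested. Of the other guidance genes 11 of 28 were called among V1 layers (14.7% of all genes). NTNG1 was among them, with 2.23 ± 0.19 in 4Cb and -2.70 ± 0.19 in layer 6.

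**Figure D4:**
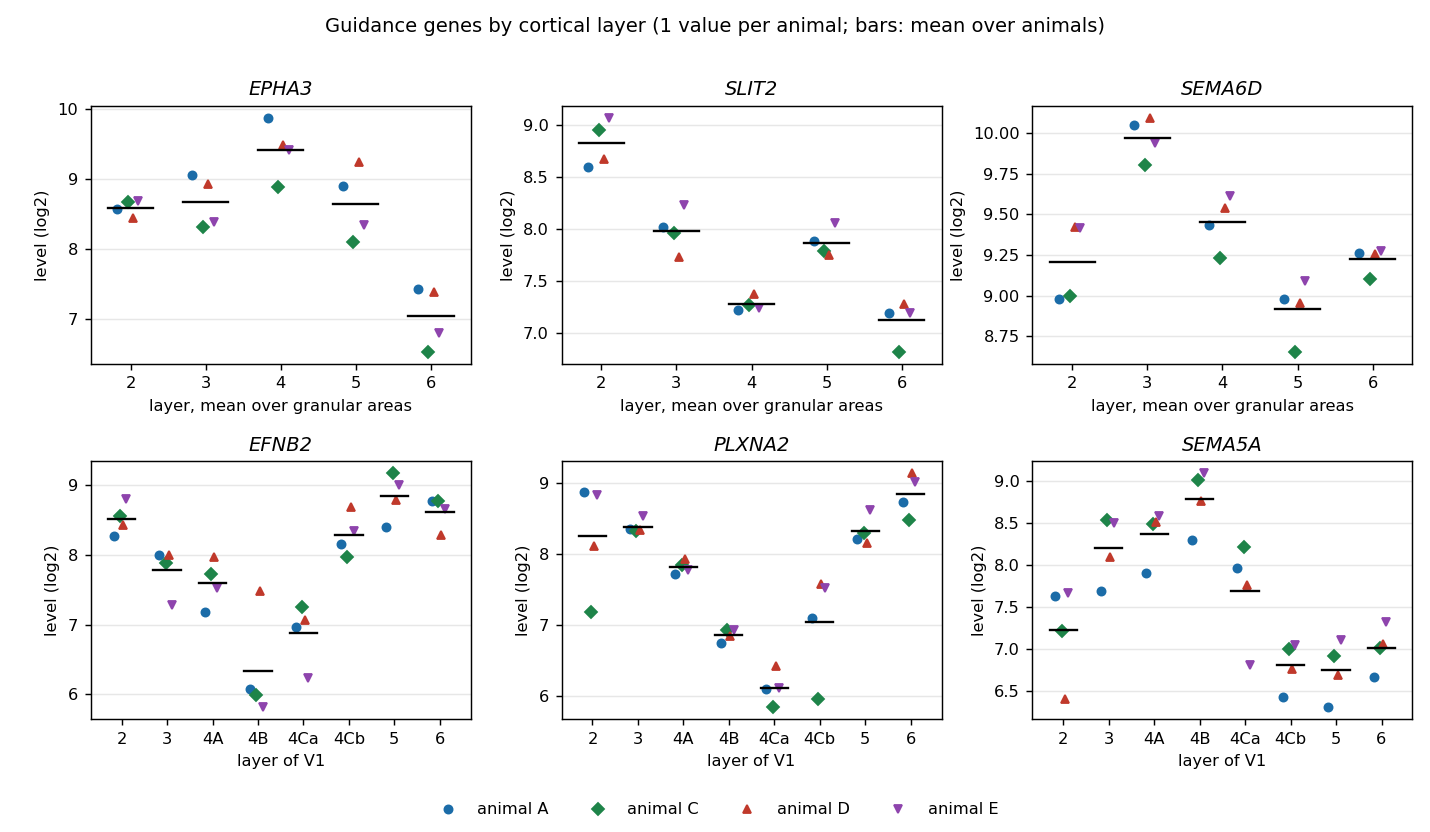
Level (log2) of 3 members over layers 2 to 6 in the mean of the areas with a layer 4 other than V1 (upper panels) and of 3 members over the 8 layers of V1 (lower panels), with 1 point per animal and bars at the mean over animals, each panel with its own axis. EPHA3 has its highest mean in layer 4, SLIT2 in layer 2 and SEMA6D in layer 3, while in V1 the mean of EFNB2 is lowest in 4B, that of PLXNA2 lowest in 4Ca and that of SEMA5A highest in 4B.

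Among the 4 hippocampal fields 24 of 48 members were called (19.2% of 10249 genes). DG, the layer of granule cells, had 8 (10.3%), 4 higher (5.42%) and 4 lower (4.83%). CA1 had 6 (3.48%), CA2 had 3 (2.8%) and CA3 had 6 (2.94%). The median range of fitted means was 0.99 for members and 0.50 for all genes.

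The 4 members called higher in DG were ligands. SEMA5A was at 10.48, 10.49, 10.71 and 10.91 in DG of animals A, C, D and E and at 6.58 to 7.34 in the CA fields. There was no overlap, and DG was higher by 3.71 ± 0.095, a 13.1-fold difference (adjusted p = 8.7e-13). EFNB3 was at 11.03, 11.46, 11.19 and 11.38 in DG against 9.45 to 10.21 in the CA fields, a difference of 1.40 ± 0.08 without overlap, while its second probe set gave -0.38. NTN4 was at 7.59, 7.42, 7.21 and 7.36 in DG and at 6.23, 5.90, 4.85 and 4.58 in CA3. These fields did not overlap, and NTN4 was higher in DG by 1.21 ± 0.21 and lower in CA3 by 1.46 ± 0.21. SLIT3 was higher in DG by 1.06 ± 0.12, a value of 0.97 without animal C.

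Receptors made up the lower calls of DG. EPHA1 was at 5.47, 4.97, 5.03 and 5.60 in DG and at 7.12 to 9.08 in the CA fields. DG did not overlap them and was lower by 3.03 ± 0.13 (8.14-fold, with -1.49 in another probe set). EPHB6 was at 6.06, 5.81, 6.28 and 5.91 in DG and at 8.59, 8.35, 8.32 and 8.68 in CA1. It was lower in DG by 1.97 ± 0.14 and higher in CA1 by 1.33 ± 0.14, with no overlap of these fields. UNC5B was at 3.53, 4.63, 4.69 and 4.08 in DG, at 4.90, 4.40, 4.92 and 3.60 in CA1 and at 6.93, 6.56, 7.14 and 7.33 in CA3. CA3 lay above both and was higher than the other fields by 2.21 ± 0.27, and DG was lower by 1.47 ± 0.27. ROBO1 was lower in DG by 1.005 ± 0.17, just at the threshold, and came to -0.98 without animal A, -0.95 without C and -0.97 without E.

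EPHB1, EPHB2 and EPHB3, receptors of B-class ephrins, were not called in DG and stood at 0.35 ± 0.13, 0.78 ± 0.11 and -0.56 ± 0.069. The netrin receptor UNC5A stood at -0.0039 ± 0.10. ROBO2 stood at -0.29 ± 0.13, SLIT1 at 0.62 ± 0.097 and SLIT2 at -0.58 ± 0.18.

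CA fields had their own members. EFNB2 was at 9.72, 9.59, 9.61 and 9.49 in CA1 and at 7.45 to 8.52 in the other fields. CA1 did not overlap them and was higher by 1.49 ± 0.13, with 1.35 in the second probe set. EPHA1 was higher in CA2 (1.51 ± 0.13) and in CA3 (1.44 ± 0.13), and its other probe set gave 0.85 and 0.90. NRP1, a neuropilin that binds SEMA3A, was at 7.48, 7.74, 7.46 and 7.83 in CA3 and at 6.53, 5.32, 5.56 and 5.97 in CA1, with no overlap between these fields. It was higher in CA3 by 1.15 ± 0.22 and lower in CA1 by 1.22 ± 0.22, which became -0.99 without animal C. The other NRP1 probe sets were dim and followed this one weakly or not at all (r = 0.30 and -0.042 over all arrays). EPHA5 was lower in CA3 by 1.10 ± 0.16 (-0.92 without animal E), with -1.34 in its second probe set. SEMA3C was at 8.14, 9.40, 7.22 and 8.78 in CA2 and at 6.95, 5.50, 5.09 and 6.92 in CA1, with a wide spread between animals. Its calls were 1.57 ± 0.44 in CA2 and -1.46 ± 0.44 in CA1, and the CA1 call was lost without animal C (-0.83) or animal D (adjusted p = 0.11). The second SEMA3C probe set gave 0.15 in CA2 and 0.47 in CA1, the opposite direction there. UNC5B was lower in CA1 by 1.18 ± 0.27 (-0.83 without animal E).

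The 2 excitatory markers, NEUROD6 and SLC17A7, averaged 6.34 to 6.79 in DG against 9.13 to 10.2 in the CA fields, which is no count of excitatory neurons. The 3 oligodendrocyte markers averaged 8.56 to 9.002 in DG, 9.10 to 9.79 in CA1 and 10.8 to 11.1 in CA3. The part of either set in the field differences was not tested. Of the other guidance genes 11 of 28 were called among fields (19.2% of all genes) and 7 in DG (10.3%), 6 of them higher (5.42%). FLRT3, a ligand of UNC5 receptors, was higher in DG by 2.42 ± 0.13, ABLIM3 by 2.36 ± 0.097 and NEO1, a netrin and RGM receptor, by 1.96 ± 0.094.

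**Figure D5:**
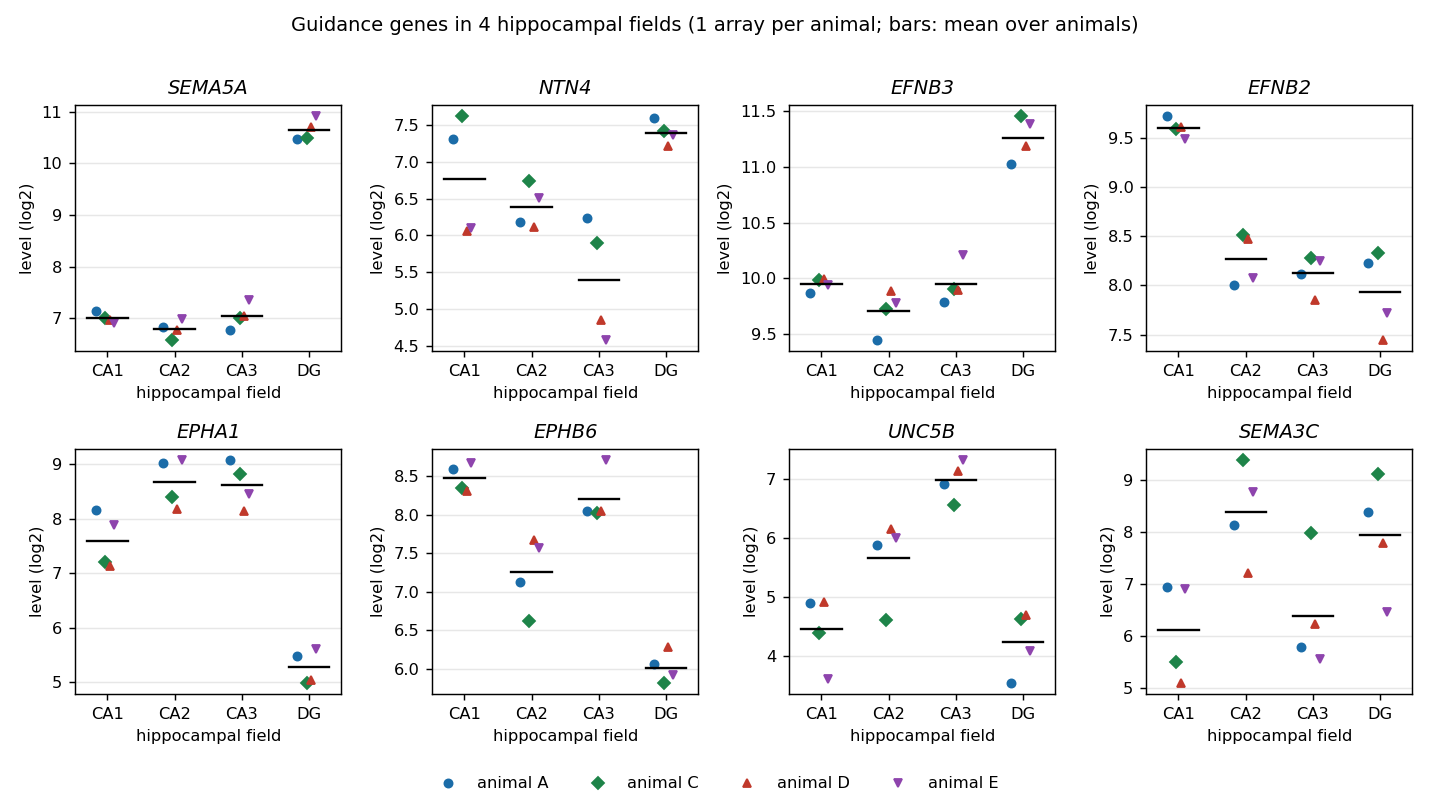
Level (log2) of 8 members in CA1, CA2, CA3 and DG, with 1 point per animal (1 array each) and bars at the mean over animals, each panel with its own axis. SEMA5A and EFNB3 are highest and EPHA1 and EPHB6 lowest in DG, EFNB2 is highest in CA1, UNC5B is highest in CA3, and SEMA3C is spread widely between animals.

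Within the LGN none of 49 members was called among the divisions by limma (0.399% of 10276 genes), and 6 had an unadjusted p under 0.05. Neither magnocellular against parvocellular (0.302%), koniocellular against parvocellular (0.0876%) nor koniocellular against magnocellular (0.214%) gave a call, with 4, 5 and 3 members under the same unadjusted p. In the F test 3 members passed the adjusted p with ranges under 2-fold. SEMA3C was at 9.96, 9.63, 10.02 and 9.64 in magnocellular and at 8.74, 8.87, 9.63 and 9.05 in koniocellular arrays (range of means 0.74, adjusted p = 0.045). EPHA3 was at 8.78, 8.81, 8.89 and 9.53 in parvocellular and at 8.64, 8.03, 7.90 and 8.63 in magnocellular arrays (0.70, adjusted p = 0.047). UNC5B had a range of 0.56 (adjusted p = 0.025), with its highest mean in the koniocellular division.

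Of the 14 members with a mean at or below the median of all probe sets, several had a region where they were above it. SEMA3A, a secreted repellent, was at 6.22 to 6.50 in layer 6 of V1, against a lowest group mean of 3.32 in layer 3 of S1. Its level lay under the limit for testing in cortex. Without that limit it was higher in layer 6 by 1.25, in deep layers by 1.64 and in layer 6 of V1 by 2.88, and a second SEMA3A probe set correlated with the first (r = 0.83). NRP1 had its highest group mean in CA3, 7.63 ± 0.19 (SD, n = 4), and its lowest in layer 2 of V2, 3.58 ± 0.20 (SD, n = 4). Without the limit NRP1 was higher in hippocampus than in neocortex by 2.46. Its other probe sets were dimmer and had r of -0.042 and 0.30 with the one used. EPHA2, an Eph receptor, had its highest mean in parvocellular LGN, 5.29 ± 0.21 (SD, n = 4), as did SEMA4G, 6.14 ± 0.28 (SD, n = 4). Without the limit SEMA4G was higher in the LGN than in neocortex by 1.39. EPHA6 was highest in CA3, at 5.05 ± 0.57 (SD, n = 4). The remaining 9 were EFNA4, EFNA5, EPHA8, NTN1, NTN5, PLXNB3, PLXNC1, UNC5C and UNC5CL. Among them NTN5 (5.43 in layer 3 of V1) and NTN1 (5.09 in layer 2 of OFC) also had a group mean above that median (4.76). So did EPHA8 (5.05 in magnocellular LGN) and EFNA4 (4.95 in layer 6 of V1).

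Ligands and receptors of matching families were set side by side across the 50 cortical groups, as a description of means that share animals and batches. Binding within each pair was not tested. The 32 pairs of brighter members used were a chosen list and did not cover every possible pair. SEMA4D with PLXNB1 was the only pair of a semaphorin with a plexin, and EPHA4 was not paired with B-class ephrins. Over this list r had a median of 0.10, with 20 above 0 and 12 below. The highest in the list were of the Slit family, SLIT3 with ROBO2 (0.74), SLIT1 with ROBO1 (0.66) and SLIT2 with ROBO2 (0.54). The lowest were EFNA2 with EPHA5 (-0.51) and NTN4 with UNC5A (-0.49). With hippocampus and LGN added (57 groups), the value for NTN4 with UNC5A became 0.77, both genes being lowest in the LGN.

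EPHA4, an Eph receptor that binds ephrins of both classes, differed more between animals than any other of the brighter members. In neocortex it was at 7.68, 7.996, 8.21 and 5.61 in animals A, C, D and E, in hippocampus at 8.70, 8.90, 9.06 and 7.24, and in the LGN at 6.87, 6.68, 6.84 and 4.81. Animal E, a female, was lowest in each structure, while animal D, also female, was highest in neocortex and hippocampus. Over the 36 groups with these 4 animals, E deviated from the group means by -1.73, and in a second EPHA4 probe set by -0.66. Animal took 82.3% of the variation of EPHA4 in cortex, against a median of 4.20% for members. Its range between animals was 2.52, the only one above 1 among the 48 brighter members, where 92 of 10300 genes passed 1. Within animals EPHA4 was higher in hippocampus than in neocortex by 1.10 ± 0.12 and lower in LGN than in neocortex by 1.076 ± 0.12.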

How the data were processed

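The deposited values are log10 intensities per probe set. Per the file headers the authors summarised them with RMA within each batch and normalised probes on common whole-brain controls. Per the labels' protocols RNA from laser-captured tissue was amplified in 2 cycles and hybridised to a macaque array. The design had assumed log2, so the log10 values were converted to log2. Of 52865 probe sets, 24969 had 1 gene symbol, 361 several and 27535 none, and the 27 control arrays entered no group. Array medians lay between 4.72 and 5.00, and the number of animals limits the precision.

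Arrays were averaged per animal within each comparison and fitted with limma (version 3.58.1, under R version 4.3.3, with files read by data.table, version 1.17.8), with animal as a fixed block, over all genes with 1 symbol whose mean exceeded the median of all probe sets. A call needed a Benjamini-Hochberg adjusted p under 0.05 and a change, or a range of fitted means, of at least 1 on the log2 scale. The animal identifiers in the labels, given here as letters, pair the samples. Deviations from group means correlated with a median r of 0.17 over 5367 pairs of arrays of 1 animal. Over 19500 pairs of different animals the median r was -0.049. Named members were at most 8 called per comparison by size of change, with every animal's value for the first 4, together with listed partners and low members. Members and lists were chosen with earlier results of these data known. Alternatives were no block, no filter on low values, quantile normalisation, each animal left out, and contrasts within control sets. The probe set of largest SD for each gene, and the average of its probe sets, were used as well. The values in other probe sets of a gene, and a fit of structures with cortex limited to the areas of 1 control set, were added after seeing the data. The fit was tested on simulated data, and tables and figures were made with Python 3.11.15, pandas 2.3.3, numpy 2.4.6 and matplotlib 3.10.9.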

Additional observations from a re-analysis of the deposited data

Results flagged for a closer look

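In 5 of 82 sets of per-animal differences, 1 animal stood apart from the rest, where chance gives about 1 in 20. EPHA1 in CA2 minus the other fields was 1.77 in animal E and 1.40 to 1.46 in the others. EPHA3 in LGN minus hippocampus was 2.62 in animal C and 3.26 to 3.37 in the others. UNC5A in the same contrast was -3.56 in animal A, with the others between -3.95 and -3.89. EFNB2 in LGN minus neocortex was -1.88 in animal D, with the others between -2.39 and -2.37. EFNB3 in hippocampus minus neocortex was 1.89 in animal D and 1.41 to 1.46 in the others. The direction was shared by all 4 animals in each of these.

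The deep minus upper difference was called different between V1 and the other areas, by a test of the difference itself, for EPHA3 (1.48) and SEMA3C (1.31).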

How the results depend on the processing

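Of 83 named changes, 47 kept their call under every alternative run for them and 36 lost it under at least 1. None changed sign under these alternatives. Taking the probe set of largest SD ended 0 of 83 calls. Of the genes in these changes only EPHA5 (SD 0.81 against 0.94) and SEMA6D (0.79 against 0.85) had another set of larger SD. For all the others, EFNB3 (1.12 against 0.29) and SEMA3C (0.95 against 0.52) among them, the set already used was kept. Another set was thus not tested for them, and their calls could not be lost in that way. In other probe sets above the median of all probe sets, 9 of 44 comparisons had the other direction. Averaging all probe sets of a gene ended 30 of 83 calls, quantile normalisation 5, and leaving out animal A, C, D or E ended 5, 7, 8 and 9. Leaving out B ended 1 of 12, leaving out F 0 of 11, and contrasts within control sets 1 of 11. Limiting cortex to the 4 areas that share a control set with hippocampus and LGN, chosen after seeing the data, ended 0 of 24 calls between structures. The fit with no animal block, which drops the pairing, ended 2 of 81 calls, and gave 4 members called among layers, 1 in deep against upper layers, 7 among areas, 3 in visual against frontal areas, 19 among V1 layers, 23 among hippocampal fields, 0 among LGN divisions and 20 among structures. With averaged probe sets the counts became 2 among layers, 0 in deep against upper layers, 4 among areas, 1 in visual against frontal areas and 0 for the V1 difference. Without the filter on low values 2 members were called in deep against upper layers, and within control sets 5 were called in visual against frontal areas. Leaving out 1 animal gave 0 to 1 in deep against upper layers, 3 to 5 in visual against frontal areas and 0 to 1 for the V1 difference. The causes of these changes were not tested. Dim probe sets limit the 14 members near background, and batch was known only through the control sets.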

Other observations

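Members with several probe sets did not always give 1 picture. For 38 named changes another probe set of the gene lay above the median of all probe sets, which made 44 comparisons of a change between probe sets. In 35 of these the other set had the same direction and in 9 it had the other. EFNB3 held 7 of these opposite values and SEMA3C 2: in CA1 the second SEMA3C set gave 0.47 where the first gave -1.46. In SEMA3D a second set (mean level 5.08) differed between animals A (0.71) and D (-0.67) in its deviation from group means, where the first gave -0.18 and 0.28.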
